A study of Mus musculus with 32 samples.

Results

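The peaks described here are autosomal domains, defined as listed ATAC-seq peaks on chromosomes 1 to 19 that span 500 kb or more from their listed start to their listed end. ATAC-seq marks chromatin open to the Tn5 transposase, and the nuclei came from astrocytes of the mouse orbitofrontal cortex (OFC). The authors deposited 1 peak list per group, and 377 of the 13794 autosomal peaks in the 6 lists met the width limit, out of 16174 peaks in all. The domains of all lists were merged where they overlapped, which gave 101 loci that together spanned 91.2 Mb, or 3.70% of the autosomes of the GRCm38 (mm10) assembly. Domains were chosen by width, so their number, width and covered length are descriptions and carry no test.

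All mice were male C57BL/6J and about 8 weeks old, received an AAV6 vector with a GFAP promoter by bilateral injection into the OFC, and gave astrocytes isolated with ACSA-2 magnetic beads (MACs), with 3 mice pooled into each sample. In the knockdown experiment the vector carried a control construct (labelled GFP) or a microRNA against Zbtb7a (labelled ZBT), the gene of a zinc finger transcription factor. Each virus was given to unstressed mice (GFP control, Zbt-KD control, 5 samples each) and to mice after 10 days of chronic social defeat stress (GFP CSDS, Zbt-KD CSDS, 5 samples each). The lists of all groups of this experiment, with either virus, are called the knockdown lists below. In the overexpression experiment the vector carried GFP (GFP SSDS, 6 samples) or ZBTB7A (ZBT-OE SSDS, 6 samples), and the study describes a subthreshold social defeat of 1 day for these mice, while the sample labels give them no stress group. Expression from the vector is limited to transduced cells with GFAP promoter activity, and bead isolation does not select transduced cells. Each list stands for its whole group and is called a pooled list here, although the sources used do not give how the samples were combined. There is therefore no spread between samples, the depth behind each peak is unknown, and no difference between lists could be tested.

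Most ATAC-seq peaks are short open stretches at promoters and enhancers, whereas a listed peak of this width spans many genes or a whole gene desert. Mouse chromosomes hold large clusters of genes that arose by repeated local duplication, among them pheromone receptors, major urinary proteins, antimicrobial peptides and KRAB zinc finger genes. Copies in such clusters can be nearly identical, and a short read from one copy may fit several places in the assembly, so counts there depend on how reads with several matches were treated. The authors kept reads with a unique match.

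Sequences that recur within the loci are shown first. For 33 of the 34 loci with a domain in all 6 lists, the 60-base stretch outside exons and outside masked repeats that recurred most often within the locus was taken from the RefSeq copy of GRCm38.p6. The stretches below come from 6 multi-copy clusters and, for contrast, from the gene-poor loci at Gulp1 and Luzp2. Coordinates are those of the first copy on the plus strand, and copies were counted within the locus on both strands at full identity. All bases are in lower case, since no part of a stretch was singled out.
Vmn1r91 to Nlrp4e, chr7:20191148-20191207, 24 copies: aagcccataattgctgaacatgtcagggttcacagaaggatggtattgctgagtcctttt
Mup7 to Mup19, chr4:60080369-60080428, 18 copies: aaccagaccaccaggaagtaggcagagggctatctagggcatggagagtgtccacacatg
Gm2832 to Gm6526, chr14:41319929-41319988, 30 copies: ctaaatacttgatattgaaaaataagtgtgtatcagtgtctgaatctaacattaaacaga
Zfp990 to Zfp534, chr4:145517852-145517911, 14 copies: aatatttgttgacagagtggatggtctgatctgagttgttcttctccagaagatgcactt
Fam205a2, chr4:41884480-41884539, 16 copies: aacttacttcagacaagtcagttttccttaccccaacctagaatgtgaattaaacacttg
5730507C01Rik, chr12:18064039-18064098, 19 copies: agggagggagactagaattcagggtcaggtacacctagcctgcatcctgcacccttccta
Gulp1, chr1:44751752-44751811, 3 copies: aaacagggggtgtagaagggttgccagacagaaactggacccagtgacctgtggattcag
Luzp2, chr7:55059287-55059346, 1 copies: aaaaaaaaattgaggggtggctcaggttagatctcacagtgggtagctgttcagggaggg

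The Vmn1r stretch occurred 24 times and the Mup stretch 18 times, and in both cases every copy of it on chromosomes 1 to 19, X and Y lay inside the locus. The stretch from Gm2832 to Gm6526 had 30 of its 36 genomic copies inside the locus, and that at 5730507C01Rik had 19 of 27. The stretch at Fam205a2 had 16 of its 19 copies inside. The Gulp1 stretch occurred 3 times and the Luzp2 stretch once. Copy number alone did not divide the clusters from the gene-poor loci, since the smaller cluster from Vmn1r57 to Vmn1r64 had 3 copies, as Gulp1 did. The gene-poor locus chr8:59651819-60484477 had a stretch with 9 copies. That stretch is itself a short unit repeated in tandem, and overlapping copies were counted. Its number is therefore not comparable with those of the clusters.

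The promoters of cluster genes were similar to varying degrees. The table of RefSeq promoters held 10 of the 16 Mup genes inside the domains, and the 250 bases before their start sites were compared in all 45 pairs by global alignment. The median identity was 81.5%, and 17 pairs reached 90%. The closest pair of Mup promoters that were not identical is printed here 5′ to 3′ on the gene's strand, with capitals for bases that have no match in the partner. The pair had an identity of 97.6% of alignment positions, with 0 substitutions and 6 gap positions.
Mup15, chr4:61439705-61439954, minus strand: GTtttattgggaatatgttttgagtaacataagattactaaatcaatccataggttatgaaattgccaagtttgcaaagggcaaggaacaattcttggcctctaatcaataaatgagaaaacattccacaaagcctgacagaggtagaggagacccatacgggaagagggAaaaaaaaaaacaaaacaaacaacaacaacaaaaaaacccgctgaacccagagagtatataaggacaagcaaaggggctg
Mup17, chr4:61595833-61596082, minus strand: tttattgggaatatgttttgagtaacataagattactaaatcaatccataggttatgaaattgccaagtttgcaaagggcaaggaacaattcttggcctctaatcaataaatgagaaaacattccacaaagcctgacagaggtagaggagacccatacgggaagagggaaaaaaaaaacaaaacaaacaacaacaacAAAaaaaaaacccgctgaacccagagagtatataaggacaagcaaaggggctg

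In the Vmn1r family, with 57 genes inside, the same comparison was limited to the first 40 promoters in order of symbol. It gave a median identity of 85.6% and 16 identical pairs out of 780. The promoters of 15 zinc finger genes inside the domains had a median identity of 49.6% over 105 pairs. Type 2 vomeronasal receptors lay between, with a median of 63.3% over 19 promoters and 22 of 171 pairs at 90% or more. Most pairs in each of these families were thus below 90%.

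The number of domains was 39 in the GFP control list, 52 in GFP CSDS, 57 in Zbt-KD control, 62 in Zbt-KD CSDS, 78 in GFP SSDS and 89 in ZBT-OE SSDS. Their summed length was 40.1, 48.1, 54.1, 55.7, 71.0 and 80.5 Mb in the same order. Domains made up 0.720% of the autosomal peaks of the GFP control list and 7.42% of those of ZBT-OE SSDS. The first list held 5416 autosomal peaks and the last 1199, so both the number of domains and the total enter this difference. As a share of the length covered by autosomal peaks they varied less, from 27.9% in GFP control to 35.7% in ZBT-OE SSDS. In the plot of domain number and length per list both quantities were lowest in GFP control and highest in ZBT-OE SSDS.

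**Figure D1:**
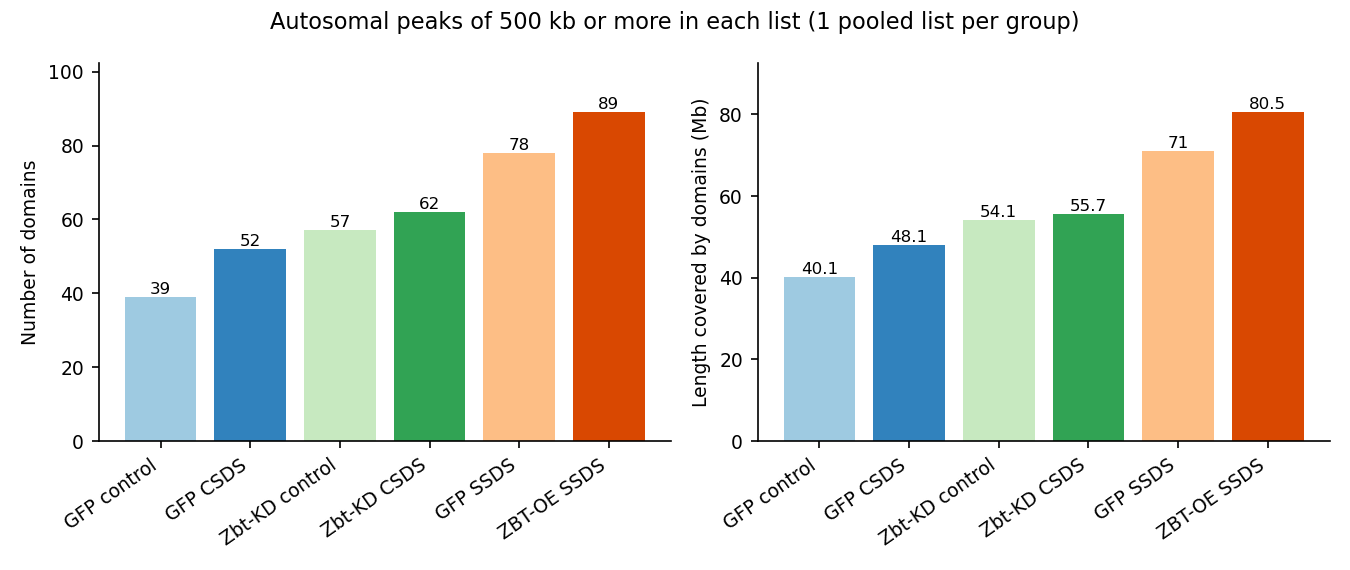
Number of autosomal domains (left) and the length they cover in Mb (right) in each of the 6 lists, with 1 bar per pooled list and therefore no error bars. Both rise from GFP control (39 domains, 40.1 Mb) to ZBT-OE SSDS (89 domains, 80.5 Mb).

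The lists differ in the finest scale at which peaks were separated, and the domain numbers followed that scale. The least width of any autosomal peak was 687 bp for the GFP control list and 1174 bp for GFP CSDS. For the knockdown virus it was 6425 bp (unstressed) and 6507 bp (CSDS). The SSDS lists had a minimum of 8473 bp with GFP and 20269 bp with ZBT-OE. This is the same order as that of the domain numbers. When peaks of every list were first merged across gaps of up to 25 kb, the numbers became 54, 71, 69, 72, 89 and 91, so that they spanned a narrower range and GFP CSDS no longer stood below Zbt-KD control. Scale and group cannot be told apart as causes of the remaining difference, nor can the overexpression and knockdown experiments be compared free of it.

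The width limit fell in a continuous range of widths. The narrowest GFP control domain spanned 504722 bp, nearest to March1. In the other knockdown-experiment lists the narrowest domain lay nearest to Urml, with 502609 bp for GFP CSDS, 503024 bp for Zbt-KD control and 505016 bp for Zbt-KD CSDS. It spanned 500188 bp for GFP SSDS (A530072M11Rik) and 500002 bp for ZBT-OE SSDS (Jag1, a Notch ligand). The widest peak just under the limit spanned 491163 bp for GFP control and 491646 bp for GFP CSDS (nearest Igfbp3 for both), 494790 and 499330 bp in the Zbt-KD lists, and 499654 and 499627 bp in the SSDS lists (both nearest Nup35). The median width of the domains lay between 690 kb in Zbt-KD CSDS and 756 kb in GFP SSDS. Domains of 1 Mb or more numbered 11, 12, 14, 13, 18 and 17 from GFP control to ZBT-OE SSDS.

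The loci were uneven between chromosomes. Chromosome 7 held 11 loci with 13.0 Mb, chromosome 12 held 8 with 10.4 Mb, chromosome 4 held 10 with 9.96 Mb and chromosome 14 held 5 with 8.47 Mb. Chromosome 1 also held 10 loci, which were shorter and spanned 6.99 Mb. Chromosomes 11, 15 and 16 had 1 locus each, and chromosome 19 had 0. Chromosome 7 and chromosome 4 each held 6 of the 34 loci with a domain in all 6 lists.

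The widest domain of every list was the same cluster of type 1 vomeronasal receptor genes, which encode pheromone receptors of the vomeronasal organ, on chromosome 7. It measured 3.17 Mb in GFP control, 3.18 Mb in GFP CSDS, 3.16 Mb in Zbt-KD control, 3.18 Mb in Zbt-KD CSDS, 3.21 Mb in GFP SSDS and 3.26 Mb in ZBT-OE SSDS. The widths of this domain thus differed by a factor of 1.03 across the lists, and its listed fold enrichment was 10.3 to 10.9 in the knockdown experiment and 14.3 and 14.7 in the SSDS lists. The merged locus, chr7:20058896-23318172, holds the start sites of 85 coding genes from Vmn1r91 to Nlrp4e and 60 pseudogenes, and 97.2% of its 31-mers have another copy in the genome.

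Of the other long loci, most were clusters of duplicated genes. The second longest, chr12:17913805-21009992 (3.10 Mb), holds 3 coding start sites in GENCODE and 76 pseudogenes, while RefSeq names 12 zinc finger products among its 20 coding genes. The locus chr12:21697542-24252683 (2.56 Mb) was similar, with 58 pseudogenes and 5 zinc finger products, and had a domain in 4 lists. The locus chr5:93381919-96293483 (2.91 Mb) holds 17 of the 30 autosomal RefSeq genes with a PRAME product, a family of leucine-rich repeat proteins, although 0 of 11 genes with a Prame-like symbol were inside a locus, and was covered to between 97.6% and 100% in the lists. On chromosome 14 there were 3 such loci, chr14:41236742-43772165 (2.54 Mb), chr14:5226658-7700448 (2.47 Mb) and chr14:3015871-5166766 (2.15 Mb), with 52, 52 and 46 coding start sites. The last pair of these holds 9 of the 10 RefSeq genes named alpha-takusan, a family described as regulators of synaptic activity. The locus chr4:145413219-147768648 (2.36 Mb) holds zinc finger genes from Zfp990 to Zfp534 and had the highest median fold enrichment of its widest peak, 12.4. The locus chr7:7600260-9803066 (2.20 Mb) holds 13 coding genes, from Vmn2r34 to Vmn2r46, type 2 vomeronasal receptors.

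The Mup locus, chr4:60037593-61808907 (1.77 Mb), holds Mup7 to Mup19, 16 coding genes for the lipocalins that carry pheromones in mouse urine. It was covered by peaks to 89.1% in GFP control, 90.5% in GFP CSDS, 89.95% in Zbt-KD control, 86.1% in Zbt-KD CSDS, 96.0% in GFP SSDS and 99.0% in ZBT-OE SSDS. The fold enrichment of its widest peak was 5.45, 6.05, 5.21, 5.60, 7.06 and 8.22 in that order. Both SSDS lists covered more of the locus than the 4 lists of the knockdown experiment. Undetermined bases of the assembly make up 400 kb (22.6%) of the locus and count as covered where a listed peak spans them. Fold enrichment is relative to each list's own background, so its levels are not ranked between lists.

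Shorter loci with a domain in every list held further families. The locus chr1:84963553-85644382 (0.681 Mb) holds Sp110 and Sp140, interferon-inducible nuclear body proteins, and chr4:41877139-42736300 (0.859 Mb) holds 20 coding genes around Fam205a2, with 7 chemokine products in RefSeq. The Obox genes, oocyte-specific homeobox genes, lie in chr7:14708822-15785990 (1.08 Mb). Secretoglobin genes from Scgb2b15 to Scgb1b20, which encode androgen-binding protein subunits, lie in chr7:32641179-33512005 (0.871 Mb). Vmn1r57 to Vmn1r64 lie in chr7:5206219-5998366 (0.792 Mb) and Vmn2r113 to Vmn2r116 in chr17:22898568-23463898 (0.565 Mb). The Esp genes, whose peptides include a tear pheromone, share chr17:40116175-41037005 (0.921 Mb) with Crisp3. Speer genes, a testis-expressed family, lie in chr5:10928434-11760896 (0.832 Mb) and chr5:14915026-15475231 (0.560 Mb). Of the latter locus 395 kb (70.5%) are undetermined bases of the assembly, where no read can map. Most of its width is therefore not sequence. Further loci in all lists were chr2:176831132-177609613 (0.778 Mb), where 10 of 11 coding genes have a provisional symbol, chr8:19698598-20790739 (1.09 Mb), where 4 of 4 do, and chr4:121851827-122478842 (0.627 Mb), with 0 coding start sites.

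A second kind of locus in all 6 lists was poor in genes. These included chr1:44273772-45165588 (0.892 Mb) at Gulp1, an adaptor of phagocytosis, and chr2:82723786-83565973 (0.842 Mb) at Fsip2, a protein of the sperm sheath. The locus chr6:11211009-11969551 (0.759 Mb) holds the start sites of Ndufa4, a subunit of the respiratory chain, and Phf14. The locus chr7:54782033-55456613 (0.675 Mb) lies at Luzp2, chr5:61288644-62444684 (1.16 Mb) at G6pd2, chr4:74504877-75844423 (1.34 Mb) at Dmac1 and chr18:50532838-51074161 (0.541 Mb) at Pudp. With 0 coding start sites there were chr3:22297470-23307909 (1.01 Mb), chr4:20838392-21634167 (0.796 Mb), chr8:59651819-60484477 (0.833 Mb), chr10:14968309-15780878 (0.813 Mb) and chr12:62735004-63743292 (1.01 Mb).

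Base composition and repeat content were read for loci with many and with 0 coding start sites. A 31-mer was called repeated when it occurred more than once on chromosomes 1 to 19, X and Y. The 22 loci with 10 or more coding start sites had a median of 84.9% repeated 31-mers (29.9% to 99.7%) and 40.7% GC, and the 30 loci with 0 had 26.0% (17.6% to 89.7%) and 37.95% GC, so the ranges overlapped. Of the autosomes as a whole 15.8% of 31-mers were repeated, and of the loci a median of 29.5%, from 9.49% to 99.7%. At a limit of 50%, which was set after the values were seen, 34 loci with 42.2 Mb fell above and 67 with 49.0 Mb below. By this choice the upper set had more repeated 31-mers, with a median of 83.8% against 24.9%. Its GC content was 41.1% and that of the lower set 38.3%, beside 41.9% GC for all autosomes. The loci next to the limit had 48.6% and 50.6%, so the limit does not fall in a gap. The locus with the Esp genes and Crisp3 had 33.1% repeated 31-mers and 38.3% GC, like the gene-poor loci, and chr4:121851827-122478842, without a coding start site, had 89.7%. The GC content of repeated loci also reached down to that of gene-poor ones, with 37.9% at the first of the Speer loci. In the plot of repeated 31-mers against GC content most points lie either below 35% repeated and 40% GC or above 70% repeated.

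**Figure D2:**
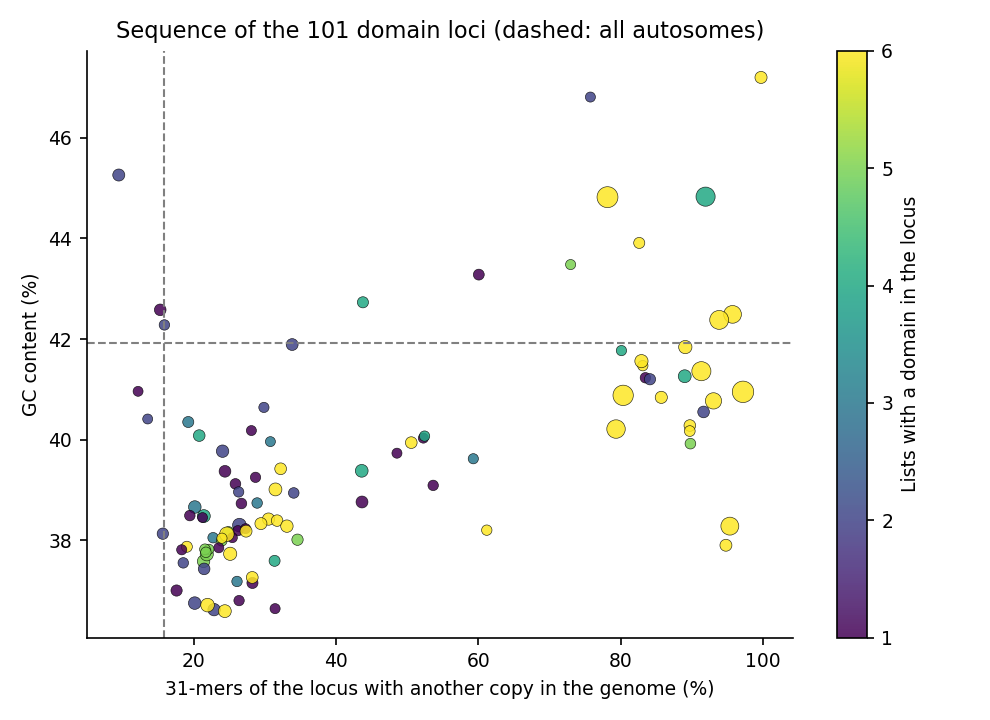
Each point is 1 of the 101 loci, placed by the percentage of its 31-mers that have another copy in the genome and by its GC content in percent, with the point area growing with length and the colour giving the number of lists with a domain there. Dashed lines mark all autosomes (15.8% and 41.9%). The loci in all 6 lists occur in both the repeated and the low-GC groups.

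Sharing went with repeat content. Of the 34 loci with at least 50% repeated 31-mers, 20 had a domain in all 6 lists (58.8%), against 14 of the other 67 (20.9%). Only 4 of the former and 20 of the latter had a domain in a single list. Repeated loci were also the longer ones, with 13 of 34 at 1 Mb or more against 8 of 67. Across the 101 loci, repeated 31-mers had a Spearman rho of 0.41 with the number of lists, 0.58 with the median fold enrichment of the widest peak. Length had a rho of 0.58 with the number of lists, which the width rule favours by construction, since a long locus passes the limit in more lists. These values are across loci of the same 6 pooled lists, and length and repeat content go together, so they are given without a p-value.

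Repeated sequence had copies both inside and outside the same locus. In the upper set a median of 72.8% of 31-mers recurred inside the same locus and 23.2% recurred nowhere else, while in the lower set the medians were 11.9% and 0.159%. High-copy sequence did not separate the sets, since 14.1% and 14.9% of 31-mers had more than 100 copies, beside 7.47% for all autosomes. Soft-masked bases made up a median of 51.3% in the upper and 47.5% in the lower set, against 33.5% of the autosomes. Undetermined bases occurred in 13 of the upper loci, with 2325 kb in all, and in 0 of the lower ones. Some listed domains therefore span gaps of the assembly in which no read can map. The share was highest at the second Speer locus (70.5%). It was 30.1% at chr8:19698598-20790739, 22.6% at the Mup locus and 18.3% at Zfp990 to Zfp534. The lengths and percentages covered given here include these bases.

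In total 722 of 21301 autosomal coding genes had their start site inside a locus, which is 3.39%, beside 3.70% of the autosomal length. By count the loci were near the genome in coding density, with 7.92 genes per Mb against 8.65 over the autosomes, but the 2 sets differed, with 13.4 coding genes per Mb in the repeated set and 3.18 in the other. A coding start site was absent from 30 loci, 28 of them in the lower set. Of the 11594 autosomal pseudogenes 1070 lay inside (9.23%), beside 4.16% of all annotated genes, and of the 1781 coding genes with a provisional symbol (Gm or Rik) 293 did (16.5%), of which 261 were in loci with a domain in all lists. The domains of a single list held from 421 coding start sites in GFP control to 705 in ZBT-OE SSDS.

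Families stood far apart from the 3.39% of all coding genes. Major urinary protein genes were inside in 16 of 22 cases (72.7%), exocrine gland peptide genes in 5 of 15 (33.3%), T cell receptor segments in 65 of 215 (30.2%), secretoglobins in 10 of 34 (29.4%), defensins in 18 of 64 (28.1%), type 1 vomeronasal receptors in 57 of 208 (27.4%) and type 2 vomeronasal receptors in 20 of 121 (16.5%). Immunoglobulin segments (19 of 255, 7.45%), serpins (4 of 60, 6.67%) and zinc finger genes by symbol (24 of 417, 5.76%) were closer to the background. Olfactory receptors, the largest family, were at 45 of 1128 (3.99%), near the background. The members of a family lie side by side, so 1 domain takes many of them at once, and the counts are not independent.

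**Figure D3:**
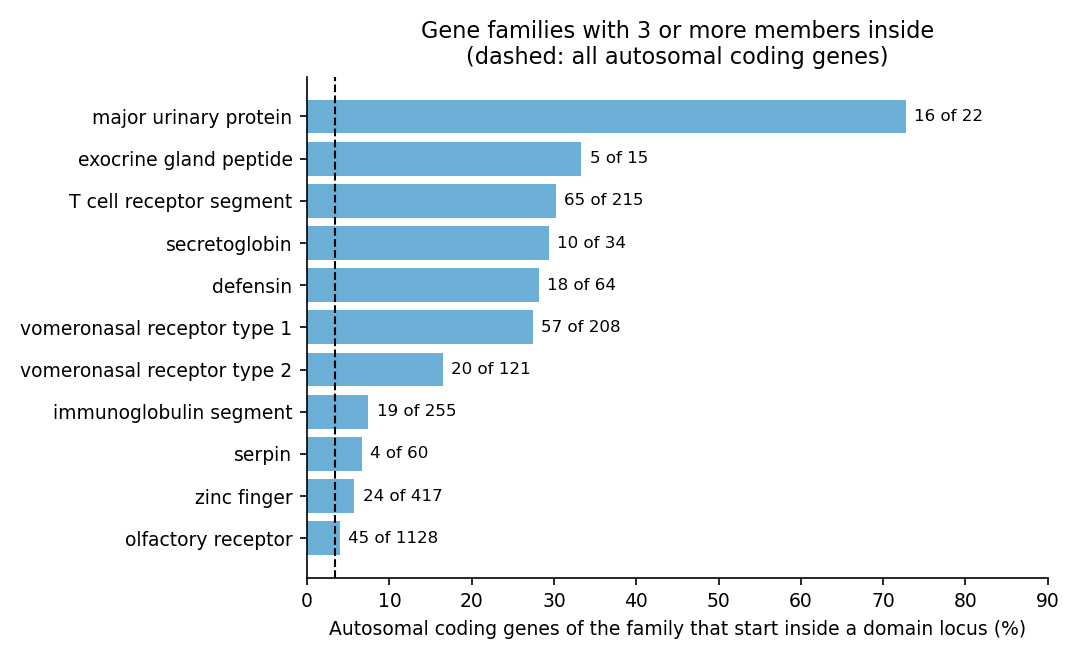
Percentage of autosomal coding genes of each family, by symbol prefix, whose start site lies inside a domain locus, for the families with 3 or more such genes, with the number inside and in all beside each bar. The dashed line is the 3.39% of all coding genes, which major urinary proteins (72.7%) exceed most and olfactory receptors (3.99%) hardly.

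Some families had few members inside or 0, and for the smaller ones a count of 0 is near what the 3.39% of all coding genes gives, so nothing particular to them is read from it. Cytochrome P450 genes, UDP glucuronosyltransferases, carboxylesterases, keratin associated proteins, histocompatibility genes, Skint genes, cadherins, trace amine receptors, formyl peptide receptors and interferon alpha genes had 0 members inside, of 100, 22, 19, 57, 34, 11, 23, 15, 7 and 16 respectively. Of 358 solute carriers 1 was inside, Slc6a15, a transporter of neutral amino acids. Of 67 protocadherins 1 was inside, Pcdh10. Many of the cytochrome P450 genes also lie in clusters of local duplicates.

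Families differed in how many lists had the domain. The type 1 vomeronasal receptors, major urinary proteins, secretoglobins and exocrine gland peptides that were inside lay wholly in loci with a domain in all 6 lists. These counts use loci merged over the lists, and for the Mup genes they exceed those of single lists, since the domains of each of the 4 knockdown-experiment lists held 9 of the 22 genes, those of GFP SSDS 15 and those of ZBT-OE SSDS 16. Alpha-defensin genes, antimicrobial peptides of Paneth cells, lay in chr8:21073999-21684588 (0.611 Mb), with a domain in 5 lists and cover from 84.9% in Zbt-KD CSDS to 100% in GFP SSDS. The Zscan4 genes, expressed in the early embryo, lay in chr7:10815518-11364614 (0.549 Mb), with a domain in 4 lists. Olfactory receptors lay in a pair of loci with a domain in ZBT-OE SSDS alone, Olfr1137 to Olfr1170 in chr2:87706667-88231536 and Olfr1258 to Olfr1274-ps in chr2:89897817-90414599. The 19 immunoglobulin segments also lay inside domains of ZBT-OE SSDS alone. Serpins were inside in GFP control (4), GFP CSDS (4), Zbt-KD CSDS (3) and ZBT-OE SSDS (4), with 0 in Zbt-KD control and GFP SSDS. In the latter lists the widest peak at the serpin locus fell just short of the limit, at 0.487 and 0.491 Mb. Their peaks covered 87.6% and 95.7% of that locus. T cell receptor alpha segments lay in chr14:52850835-53557979 with a domain in both SSDS lists. In the olfactory, T cell receptor and immunoglobulin loci the knockdown lists held shorter peaks. These covered 83.5% to 92.7% of the first olfactory locus and 67.1% to 71.8% of the second. They covered 51.1% to 69.0% of the T cell receptor locus and 21.7% to 39.6% of the immunoglobulin locus. GFP SSDS, without a domain at the olfactory and immunoglobulin loci, covered 90.7%, 93.5% and 60.2% of them. Its cover of the first olfactory locus thus lay within the range of the knockdown lists.

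Markers of cell types were compared with the loci by overlap with any part of the gene, for which the background is 3.46% of autosomal coding genes. Of 10 astrocyte markers, among them Aqp4, Gfap and Slc1a2, 0 overlapped a locus, and the same was true of the 10 neuronal, 10 microglial and 9 autosomal oligodendrocyte lineage markers. With lists of 10 genes a count of 0 is near this background. Peaks of any width overlapped 6.33% of coding genes in GFP control to 12.6% in ZBT-OE SSDS, and they overlapped 0 of the astrocyte markers in 5 lists and 1 in ZBT-OE SSDS, and 0 or 1 of the neuronal markers in each list. The deposited peaks thus give no check of the labelled cell type through these genes. Of the genes the study names in astrocytes or OFC tissue, 0 of 12 on autosomes overlapped a locus, Zbtb7a included, and 1, Fkbp5, overlapped a narrower peak, in ZBT-OE SSDS.

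The share of loci near chromosome ends was close to the share of length there. Of the 101 loci 15 had their midpoint within 10 Mb of an end, which is 14.9% (95% Wilson interval 9.21% to 23.1%), beside 15.4% of autosomal length in these windows. Loci with a domain in all 6 lists were at 6 of 34 (17.6%). Counted from the first and last determined base instead, 19 of all loci (18.8%) were near an end, beside 15.8% of length. The share of all loci thus passed from below the background to above it. Of the 34 loci 8 (23.5%) were near an end by this count, and their share was above the background both ways. Mouse autosomes are acrocentric, with the centromere at the low coordinates, and by length the 2 ends differed, with 9.87 Mb within 10 Mb of the centromeric end and 5.30 Mb at the other. Most of the former came from chromosomes 7 and 14, and without these the centromeric windows held 1.56 Mb. The alpha-takusan locus on chromosome 14 began 15.9 kb after the first determined base of the chromosome. The locus at Dok6, chr18:89688340-90413111, ended 0.290 Mb from the distal end.

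Sharing between lists was nearly complete when any peak of the other list counted. For each contrast a domain was called shared when peaks of the other list covered at least 50% of its length, and the same share was computed for all autosomal peaks. For stress with the control virus, 51 of 52 GFP CSDS domains were shared with GFP control (98.1%, against 42.3% of all GFP CSDS peaks), and 39 of 39 in the other direction (against 67.8%). For knockdown without stress, 55 of 57 Zbt-KD control domains were shared with GFP control (96.5%, against 49.2%), and 39 of 39 in the other direction (against 69.5%). For knockdown with stress, 61 of 62 Zbt-KD CSDS domains were shared with GFP CSDS (98.4%, against 63.0%), and 52 of 52 in the other direction (against 58.6%). For stress with knockdown, 61 of 62 Zbt-KD CSDS domains were shared with Zbt-KD control (98.4%, against 65.5%), and 57 of 57 in the other direction (against 70.4%). For overexpression, 89 of 89 ZBT-OE SSDS domains were shared with GFP SSDS (100%, against 61.6%), and 77 of 78 in the other direction (98.7%, against 69.4%). The contrasts share lists, and wide peaks have more length to be covered in part, so these values stand side by side as descriptions.

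Sharing was lower when the other list had to hold a domain of its own. Of the 101 loci 34 had a domain in all 6 lists, and 10, 9, 7, 17 and 24 had one in 5, 4, 3, 2 and 1 lists. The 34 loci were longer, with a median of 0.906 Mb against 0.561 Mb for the 24, and held 211 of the 377 domains. Domains in 1 list numbered 16 loci in ZBT-OE SSDS, 3 each in GFP SSDS and Zbt-KD CSDS, 1 each in Zbt-KD control and GFP CSDS, and 0 in GFP control. All 101 loci had at least 1 peak in every list, and 83 were covered to at least 50% in every list. Over all 101 loci the median number of peaks per locus was 6 in GFP control, 3 in GFP CSDS, 2 in Zbt-KD control and 1 in the other lists.

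**Figure D4:**
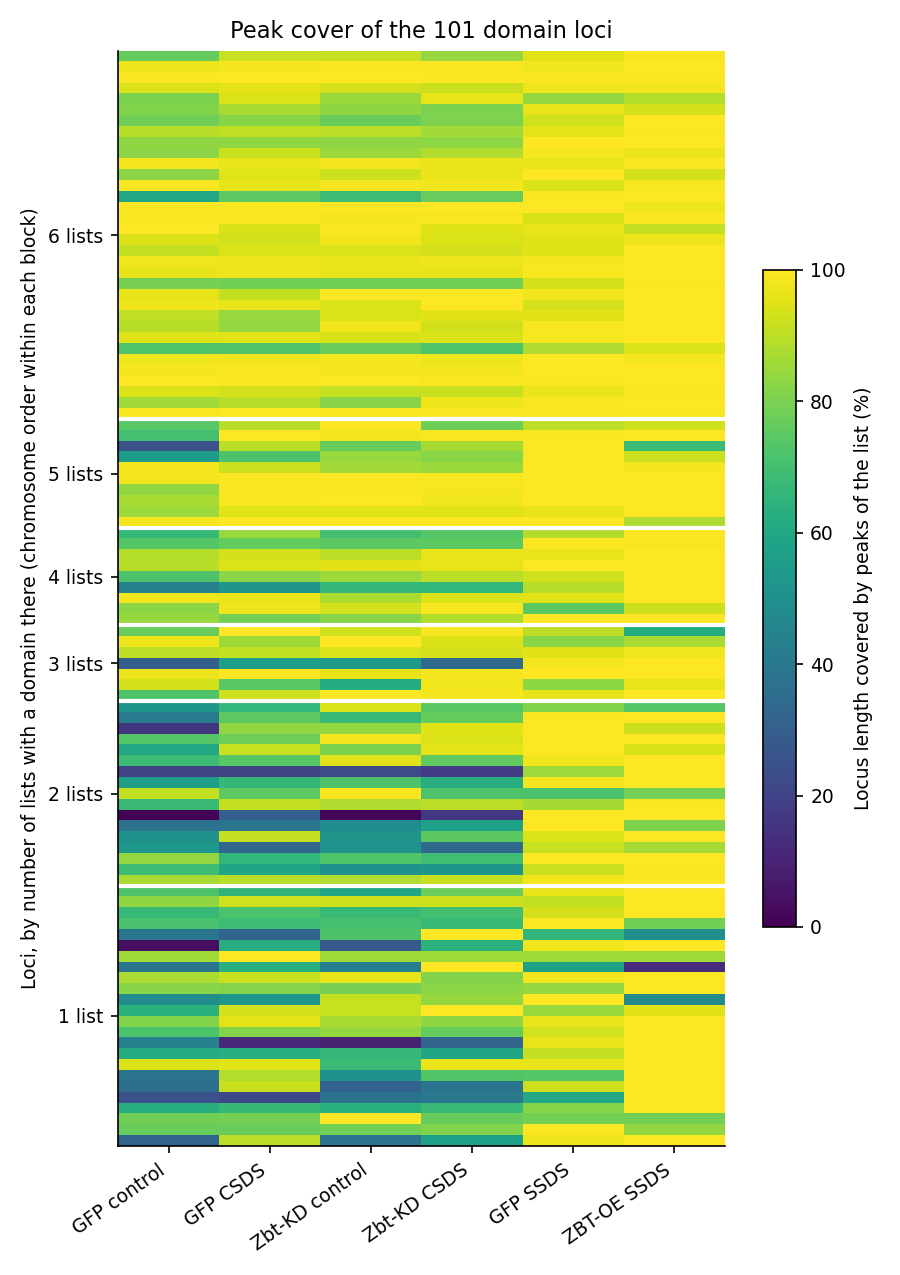
Percentage of the length of each of the 101 loci (rows) that peaks of each list (columns) cover, from 0 (dark) to 100 (yellow), with loci in blocks by the number of lists with a domain there. The block of 6 lists is covered to at least 60.01% throughout, while dark cells occur mainly in the blocks of 1 and 2 lists and in the lists of the knockdown experiment.

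The edges of domains present in all lists were compared where each list had exactly 1 domain, which was so in 31 of the 34 loci. In these the widest of the 6 was a median of 1.09 times as wide as the narrowest, and at most 2.04 times, at the Obox locus. The position of an edge differed between lists by a median of 41.5 kb, from 0.668 kb to 741 kb. Of the 62 edges 10 agreed within 5 kb, among them the low edge at Fsip2 and the high edges at G6pd2 and Pudp, while 0 loci had both edges within 5 kb. Among the repeated loci the domain with Sp110 and Sp140 varied from 0.664 to 0.680 Mb and that at Gm2832 on chromosome 14 from 2.50 to 2.53 Mb. At the other 3 loci, where at least 1 list had several domains, the ratio of widest to narrowest was larger, at 3.08 for Mup7 to Mup19, 2.23 for Zfp990 to Zfp534 and 4.43 for 5730507C01Rik.

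The longest locus with a domain in a single list was, in ZBT-OE SSDS, chr6:130622993-131448294 (0.825 Mb) with Klra2, a lectin-like receptor of natural killer cells, covered to 71.5% to 93.3% in the other lists. In GFP SSDS it was chr2:94878136-95486313 (0.608 Mb, nearest Api5), in Zbt-KD CSDS chr3:11962550-12647321 (0.685 Mb, nearest Gm10745), in GFP CSDS chr3:6773799-7312869 (0.539 Mb, nearest Pkia) and in Zbt-KD control chr13:77233231-77789899 (0.557 Mb) at Fam172a. The last of these was covered to 76.6% to 79.3% in the other lists. The locus near Pkia was covered to 85.7% or 85.8% in the other lists, so that it was a domain in GFP CSDS by a modest extension.

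For each contrast the single largest difference in percent covered was at a locus with 0 coding start sites. Gene-richer loci differed too, as chr2:136869876-137369877 (10.0 coding genes per Mb) did by 58.7 points for GFP CSDS minus GFP control. For stress with the control virus and for knockdown without stress the largest difference was at the same locus, chr1:107925923-108513884 (0.588 Mb, 0 coding start sites, nearest D830032E09Rik). It was covered to 16.02% in GFP control, 83.9% in GFP CSDS, 84.1% in Zbt-KD control, 95.1% in Zbt-KD CSDS, 100% in GFP SSDS and 92.3% in ZBT-OE SSDS, so that the GFP control list, which enters both contrasts, stood apart from the other 5. For knockdown with stress it was chr2:97733221-98298625 (0.565 Mb, nearest Lrrc4c), covered to 32.3% in GFP CSDS and 100% in Zbt-KD CSDS. For stress with knockdown it was the locus near Gm10745, with 43.1% in Zbt-KD control and 100% in Zbt-KD CSDS, beside 12.6% in ZBT-OE SSDS. For overexpression it was chr4:16275643-16775830 (0.500 Mb, nearest A530072M11Rik), with 100% in GFP SSDS and 47.3% in ZBT-OE SSDS.

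Over all loci the median difference of a contrast was at most 2.80 points, while single loci differed by more in both directions. The median difference in percent covered was 2.27 points for GFP CSDS minus GFP control and 2.80 points for Zbt-KD control minus GFP control, with 72 loci higher and 29 lower in both cases. It was -0.04 points for Zbt-KD CSDS minus GFP CSDS (49 higher, 52 lower) and 0.23 points for Zbt-KD CSDS minus Zbt-KD control (56 higher, 45 lower). For ZBT-OE SSDS minus GFP SSDS it was 1.83 points (69 higher, 31 lower). Differences of 20 points or more were upward at 16, 19, 5, 8 and 2 loci and downward at 2, 3, 3, 4 and 5 in this order of contrasts, so that for ZBT-OE SSDS minus GFP SSDS more of the large differences were downward. Loci are the union of the domains of all lists, so a list with more domains covers more of them by construction.

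The SSDS lists stood above the lists of the knockdown experiment, with either virus, at some loci by a wide margin. Both SSDS lists covered more of the locus than any of the 4 lists of the knockdown experiment at 62 of 101 loci, and by at least 20 points at 17. Of the 101 loci 33 had a domain in SSDS lists only and 6 in knockdown lists only, so the choice of loci favours a higher SSDS cover. Among the 34 loci with a domain in all 6 lists, both SSDS lists were above at 19 and below at 1. The loci with the widest margin were chosen by the width of their SSDS peaks and are given as a description. The locus chr9:79403053-79903419 (0.500 Mb) holds Col12a1, a fibril-associated collagen, Cox7a2, a respiratory chain subunit, and Tmem30a, a subunit of lipid flippases. It was covered to 0.967% in GFP control, 30.2% in GFP CSDS, 1.78% in Zbt-KD control and 16.3% in Zbt-KD CSDS, and to 100% in both SSDS lists. The locus chr6:121796048-122615585 (0.820 Mb), from Mug1, a plasma protease inhibitor, to Gdf3, was covered to 17.9% to 23.4% in the knockdown lists, 85.2% in GFP SSDS and 100% in ZBT-OE SSDS. The locus chr9:81936615-82468079 near Mei4 had 9.70% to 44.4% in the knockdown lists and 96.4% and 100% in the SSDS lists. These 3 loci had a domain in SSDS lists only. The SSDS mice differed from the others in vector, stress and experiment, and these cannot be told apart.

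The fold enrichment, which the authors' peak caller gives as signal in the peak over its background, was higher in domains than in other autosomal peaks of the same list. The median was 4.51 against 1.68 in GFP control, 4.24 against 1.68 in GFP CSDS, 3.68 against 1.77 in Zbt-KD control, 3.78 against 1.78 in Zbt-KD CSDS, 4.14 against 1.88 in GFP SSDS and 3.78 against 2.08 in ZBT-OE SSDS. Domains were thus at 1.82 to 2.69 times the median of the others. Part of this went with width, since beside other peaks of 100 kb or more the ratio was 1.50 to 1.77, as in the plot of fold enrichment for both kinds of peak. The authors give no error for these values, and with 1 list per group no spread is known.

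**Figure D5:**
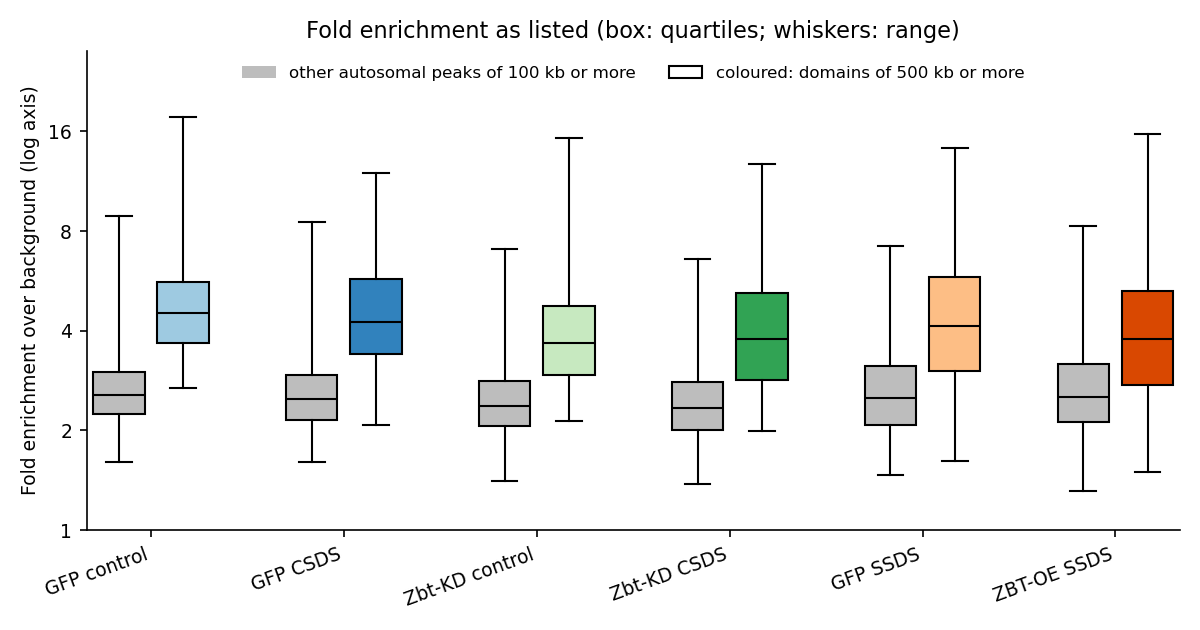
Listed fold enrichment (log axis) of domains (coloured boxes) and of other autosomal peaks of 100 kb or more (grey boxes) in each list, with the box at the quartiles, the line at the median and whiskers over the full range. The median of the domains (3.68 to 4.51) lies above that of the others (2.34 to 2.55) in each list, and the ranges overlap.

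Single loci departed from this. At chr7:3763576-4452929, with Pira2 and Rdh13 among 13 coding start sites, the widest peak had 1.62 in GFP SSDS and 1.64 in ZBT-OE SSDS, below the median of the other peaks in the same lists. In the knockdown lists it had 3.97 to 4.95, but there it was a narrower peak, of 0.353 to 0.515 Mb against 0.689 and 0.682 Mb. The repeated locus with Sp110 and Sp140 had 8.05 to 9.08 in the knockdown lists and 13.0 and 15.7 in the SSDS lists, and that around Fam205a2 had 5.75 to 7.34 and then 11.5 and 13.7. These values stand side by side without a ranking of the lists.

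By the authors' annotation, which describes a peak by its centre, 79.8% to 88.5% of domains were intergenic, beside 63.3% to 81.2% of the other autosomal peaks. A domain was annotated to a promoter once, in ZBT-OE SSDS. The centre of a domain fell in a LINE repeat in 25.6% to 41.0% of cases, beside 22.0% to 33.7% of other peaks, and the share was lower for domains in Zbt-KD CSDS and GFP SSDS and higher in the other 4 lists. Since the median distance from the centre of a domain to the nearest start site was 127 to 200 kb, the nearest gene named in a list need not start inside the domain, as at chr2:82723786-83565973, where it was Zc3h15 for the widest domain while the coding start site inside was that of Fsip2.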

How the data were processed

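ATAC-seq was done on 32 samples in 6 groups. In the authors' pipeline, as the methods of the study give it, HISAT2 placed reads on mm10, and reads with several matches and duplicates (SAMtools) were dropped. MACS called peaks with no fragment model and a fixed shift and extension size, and the peaks were then annotated. The methods give the same settings for all lists. The source of the difference in least peak width, from 687 bp in GFP control to 20269 bp in ZBT-OE SSDS, is not given there. The combination of a group's samples into 1 list is not given in the sources used here. The fold enrichment in each list is the ratio the authors deposited, and the q-value and the distance to the nearest start site were also taken as deposited. The lists hold no counts, so depth is unknown, and no test was made.

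Peaks of 500 kb or more were taken from each list and merged into loci at any overlap. Genes were placed by start site with GENCODE M21. Sequence came from RefSeq GRCm38.p6, where 0 of 13794 autosomal peaks passed a chromosome end. The 31-mers were sampled every 100 bp in loci and every 2000 bp in the autosomes, and counted on both strands. Promoters were aligned with Biopython 1.88. Wilson intervals (95%) cover counting error only. The interval and 31-mer code was tested on simulated data. The loci named were those in all 6 lists, the 10 longest, each list's widest domain and longest locus of its own, and the largest difference of each contrast, and further loci in the family and SSDS paragraphs were chosen after their values were seen. The values of 1 of the loci in all 6 lists are not reported here. Members and lists were chosen with earlier results of these data known. Alternatives for width limit, merging, end windows, gene placement and background peaks are given in the closing section.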

Additional observations from a re-analysis of the deposited data

Results flagged for a closer look

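Peaks of 500 kb or more also occurred outside the autosomes, in data that the comparisons above leave out. On chromosome X there were 16 in the GFP control list, and the other 3 lists of the knockdown experiment exceeded it, with 25 in GFP CSDS, 21 in Zbt-KD control and 22 in Zbt-KD CSDS. On chromosome Y there were 18 in GFP control and 19 in GFP CSDS, but 17 in Zbt-KD control and 15 in Zbt-KD CSDS, and the Y length in such peaks was lower in GFP CSDS (52.5 Mb) than in GFP control (55.6 Mb). In the overexpression experiment the number in ZBT-OE SSDS did not exceed that of its control on either chromosome, although the Y length was 53.3 Mb against 52.4 Mb. These are counts from pooled lists without replicates, and the difference in list scale described above applies to them too.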

How the results depend on the processing

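No paired analysis was possible because each group is 1 pooled peak list, and no replicate could be left out for the same reason. The number of loci and of loci in all 6 lists was 101 and 34, and became 19 and 11 at a width limit of 1 Mb and 307 and 124 at 300 kb. Domains per list from GFP control to ZBT-OE SSDS were 151, 181, 197, 215, 270 and 266 at 300 kb, where GFP SSDS passed ZBT-OE SSDS, and 11, 12, 14, 13, 18 and 17 at 1 Mb, where GFP SSDS again stood above ZBT-OE SSDS. Merging peaks across 25 kb, or keeping the upper 50% by fold enrichment, kept every domain number within 1.5 times, although merging turned the order of GFP CSDS and Zbt-KD control. At 1 Mb every shared percentage was 100%, above the main interval for 5 of the 10 directions. With at least 90% of the length covered, an alternative chosen after the data were seen, sharing fell to 73.1% (GFP CSDS in GFP control), 71.9% (Zbt-KD control in GFP control), 88.7% (Zbt-KD CSDS in GFP CSDS, and in Zbt-KD control), 91.2% (Zbt-KD control in Zbt-KD CSDS), 87.6% (ZBT-OE SSDS in GFP SSDS) and 88.5% (GFP SSDS in ZBT-OE SSDS). Loci near chromosome ends were 6.93% in windows of 5 Mb, which hold 7.71% of autosomal length, and 18.8% against 15.8% when counted from determined bases, where the share passed from below its background to above it. Leaving out chromosomes 7 and 14, also chosen after the data were seen, gave 9.41%. With all annotated genes 4.16% were inside, and type 2 vomeronasal receptors rose from 20 to 48 and secretoglobins from 10 to 18. Beside other peaks of 100 kb or more the ratio of median fold enrichment was 1.77, 1.71, 1.55, 1.61, 1.66 and 1.50 from GFP control to ZBT-OE SSDS. Of all 113 alternative values 75 stayed within their limits and 38 moved. Counts by words of RefSeq product names, also added later, were within 1.5 times of those by symbol for the 5 families compared, while serpins, at 0 of 40 by product against 4 of 60 by symbol, Speer genes, at 4 against 2, and PRAME genes, at 17 of 30 against 0 of 11, were not. Depth and the spread between samples are unknown, so that no difference between lists can be told from sampling.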
